A study of Drosophila melanogaster with 8 samples.

Results

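The 1054 regions described here are stretches of chromatin inside genes, away from any start. They hold anti-FLAG peaks of the tagged E-protein Daughterless (Da) from adult *Drosophila melanogaster* heads. They were chosen from the peak lists of an anti-FLAG ChIP-seq experiment. Overlapping peaks were merged, a region had to hold peaks of both 3xFLAG-Da IP lists and to touch no Control peak, and its summit had to lie in an intron, in no exon and more than 2000 bp from every annotated transcript start. Of 6649 Da regions in both lists and in no Control list, these far intronic regions made up 15.9% (95% Wilson interval 14.99 to 16.7%). Promoter regions, with a summit within 1000 bp of a start, numbered 4642, and distal intergenic regions 284. With 3xFLAG-Da IP replicate 2 left out, a peak in both lists could not be required. Peaks and summits of replicate 1 alone then gave 1819 far intronic regions.

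Heads of flies aged 1 to 3 days were used. In 3xFLAG-Da flies the endogenous Da protein carries a 3xFLAG tag, and Control flies (white*), the background in which the tagged line was made, have no FLAG sequence in the genome. The series holds 2 IP and 2 input samples of each line, and the peak lists of the 4 IP samples were used here. All head cell types are pooled in such chromatin, so a region cannot be given to neurons, glia, muscle or fat body.

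Da is the only E-protein of the fly. E-proteins are basic helix-loop-helix (bHLH) factors that bind DNA as dimers, with themselves or with tissue-specific class 2 bHLH proteins, at E-boxes of the form CANNTG. The Id protein Extramacrochaetae, which has no DNA-binding region, takes Da out of such dimers. Introns of fly genes hold many enhancers, short stretches that bind transcription factors and act on a promoter at a distance, which is why regions inside genes are of interest beside those at promoters.

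The sequences under some of the highest regions are shown because the E-boxes counted later can be read in them. Each line is the window of 50 bp to both sides of the summit, in Release 6 of the genome (RefSeq), plus strand, with every E-box in capitals. CACCTG is CAGGTG read from the other strand, and CATCTG likewise stands for CAGATG. The window of *elB* is chr2L:14400385-14400485, that of *gpp* chr3R:6425445-6425545, that of *Scr* chr3R:6828444-6828544, that of *hth* chr3R:10611159-10611259 and that of *Fmr1* chr3R:10106166-10106266.
elB: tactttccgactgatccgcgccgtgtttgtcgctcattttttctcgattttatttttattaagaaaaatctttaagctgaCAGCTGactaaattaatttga
gpp: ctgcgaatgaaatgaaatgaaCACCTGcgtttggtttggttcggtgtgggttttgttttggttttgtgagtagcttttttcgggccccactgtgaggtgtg
Scr: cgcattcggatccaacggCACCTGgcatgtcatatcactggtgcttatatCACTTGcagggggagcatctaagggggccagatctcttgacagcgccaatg
hth: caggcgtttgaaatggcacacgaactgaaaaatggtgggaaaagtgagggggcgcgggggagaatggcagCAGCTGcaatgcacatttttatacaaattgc
Fmr1: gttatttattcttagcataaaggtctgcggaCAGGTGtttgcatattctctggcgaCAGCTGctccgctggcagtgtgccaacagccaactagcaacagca

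These windows hold 1 or 2 E-boxes each. CAGCTG lies in the *elB*, *hth* and *Fmr1* windows, and CAGGTG in those of *gpp*, *Scr* and *Fmr1*. The window in *fru* is shown as a contrast, since it is among the 3 far intronic regions with the best mean fold rank and holds no E-box of any type (chr3R:18472041-18472141). It ends in caggt, and a CAGGTG that crosses the edge of a window is not counted. The window in *Eip75B* is shown because it holds CAGGTG at 4 places within 34 bases (chr3L:18034411-18034511).
fru: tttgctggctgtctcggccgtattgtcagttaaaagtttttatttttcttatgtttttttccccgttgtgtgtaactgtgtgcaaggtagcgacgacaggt
Eip75B: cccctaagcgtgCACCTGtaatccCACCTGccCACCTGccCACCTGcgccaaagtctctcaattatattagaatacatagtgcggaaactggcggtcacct

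The number of far intronic peaks, before any merging, was 1902 of 10915 (17.4%) in 3xFLAG-Da IP replicate 1 and 1422 of 8745 (16.3%) in replicate 2, against 91 of 453 (20.1%) in Control IP replicate 1 and 94 of 707 (13.3%) in replicate 2. The share of far intronic peaks in the Control lists thus lay on both sides of that in the 3xFLAG-Da lists, while the numbers did not overlap. Depth differed along with the line. The 3xFLAG-Da IP libraries had a mean coverage of 9.36 and 4.17 fragments at a position, as recovered from fold and −log10 p, and the Control IP libraries 1.92 and 1.72. The part of depth in the number of peaks was not tested. Of the Control far intronic peaks, 69.2% in replicate 1 and 84.0% in replicate 2 overlapped a 3xFLAG-Da peak. The highest was in *GEFmeso*, with folds of 46.4 and 54.1 in the Control replicates. Next were *dlg1* and *Bsg* in replicate 1, with 29.7 and 29.3, and *nrv2* and *dlg1* in replicate 2, with 34.97 and 32.99. The rule removed 63 of 1117 far intronic regions (5.64%) because they touched a Control peak, against 454 of 5096 promoter regions (8.91%).

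Absence from the Control lists says less about these regions than about promoters. At the pileup of each region, and scaled to the depth of the shallower Control library, a peak would have been called with a chance of at least 0.95 in 247 of the 1054 regions (23.4%), against 46.3% of promoter regions. For 343 far intronic regions (32.5%), against 14.5% of promoter regions, that chance was under 0.5. The study tested the enrichment of peaks over the white* signal, and that test is not part of the rule used here.

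Far intronic regions had lower folds than promoter regions, which describes the lists and was not tested, since the regions were chosen on their peaks. The fold is the pileup at the summit over the local background. In 3xFLAG-Da IP replicate 1 it ran from 1.79 to 18.2 with a median of 3.93, against a median of 4.83 at promoters. In replicate 2 it ran from 2.004 to 30.03 with a median of 4.47, against 5.22 at promoters. Only 15.7% of far intronic regions, against 27.9% of promoter regions, were among the best 25% of all 6649 by mean fold rank, and 35.3% against 21.1% were among the poorest 25%. Replicates ranked the far intronic regions alike, with a Pearson correlation of log2 folds of 0.79 and a Spearman correlation of 0.73 over 1054 regions that share the same chromatin libraries. The summits of the replicates lay a median of 52.5 bp apart. The regions had a median width of 609.5 bp (260 to 4690 bp), and 84 held several peaks in a list, so that the fold given, that of the best peak, need not be the fold at the summit used for sequence.

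**Figure D1:**
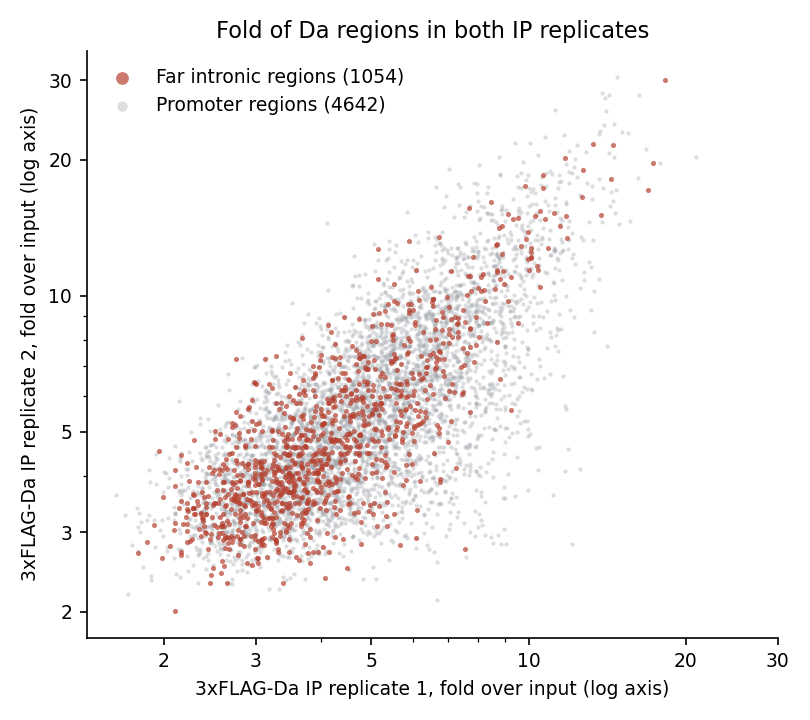
Fold over input of each far intronic region (red, 1054) and each promoter region (grey, 4642) in 3xFLAG-Da IP replicate 1 (horizontal, log axis) and replicate 2 (vertical, log axis). Far intronic regions crowd towards the lower left, with medians of 3.93 and 4.47 against 4.83 and 5.22 at promoters, and the highest, in *Mef2*, reaches 18.2 and 30.03.

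The 10 far intronic regions with the best mean fold rank lay in genes of several kinds. The highest was in *Mef2*, a MADS-box factor of muscle differentiation that also acts in mushroom body neurons. It spanned chr2R:9937358-9938675 in intron 1, 6584 bp from the nearest start, with folds of 18.2 and 30.03 in replicates 1 and 2, and held CAGGTG. The next was in *elB*, a zinc finger gene, with 14.5 and 21.6. The region in *fru*, whose BTB zinc finger products direct male courtship, had 17.3 and 19.7 and lay in an intron of 79261 bp, 8585 bp from a start.

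Metabolic, chromatin and homeotic genes came next. The region in *Prps*, which makes the precursor of nucleotide synthesis, had folds of 13.3 and 21.6, and its nearest start, 2864 bp away, was that of an antisense RNA. *gpp*, the fly Dot1 histone methyltransferase, had 14.4 and 18.1. The Hox gene *Scr* had 16.9 and 17.1, and *hth*, a homeodomain partner of Hox proteins, 12.7 and 19.0. In these 4 regions replicate 2 gave the higher fold, as in all 10.

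The last of the 10 lay in genes for a synaptic, a signalling and an RNA-binding protein. *gukh*, which links scaffold proteins at synapses, had folds of 11.7 and 20.2. *FER*, a non-receptor tyrosine kinase, had 12.7 and 16.5, and *Fmr1*, an RNA-binding repressor of translation, had 13.8 and 15.1. Of the 10 regions, 8 held CAGCTG or CAGGTG. Among all 1054 far intronic summit windows, 15.5% held CAGCTG and 11.3% held CAGGTG. *Prps* held CAGTTG alone and *fru* none.

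The distance rule set where the regions end. The nearest start lay 2006 to 59250 bp away with a median of 4863 bp, and 540 regions lay up to 5 kb, 285 from 5 to 10 kb, 171 from 10 to 20 kb and 58 more than 20 kb from it. Just inside the limit were regions in *fru* (2006 bp, folds 5.07 and 4.77), *chinmo* (2007 bp, 5.55 and 7.27) and *Nt5b* (2008 bp, 2.67 and 3.13). Just outside it were intronic summits in *sug* (1997 bp, 3.39 and 3.04), *jvl* (1997 bp, 3.33 and 4.23) and *CG11498* (1995 bp, 3.08 and 3.47). The folds of both sides overlap.

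The sequence such regions could occupy, intron outside all exons and over 2000 bp from every start, covers 41.4 Mb or 30.9% of the chromosome arms. The 1054 regions amount to 25.5 per Mb of it, against 49.7 per Mb for all 6649 regions over the arms. Density was similar on the long arms, from 22.1 per Mb on X to 27.6 per Mb on 2R. The small chromosome 4, which is largely heterochromatic, held 1 region in 0.445 Mb, or 2.25 per Mb. Introns that are the first of some transcript held 617 regions (58.5%) in 37.6% of that sequence, 39.6 per Mb, against 16.9 per Mb in later introns. These densities are descriptions without a test.

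E-boxes were more frequent at the far intronic summits than beside them. Each window of 50 bp to both sides of a summit was compared with the same windows moved by 250 bp to both sides, 1054 against 2108 windows. CAGCTG was in 163 summit windows (15.5%, 13.4 to 17.8%) and 4.79% of shifted windows, an odds ratio of 3.64 (95% Wald interval 2.80 to 4.72, Fisher's exact test with Benjamini-Hochberg adjustment over 10 E-boxes p = 6.97e-22). CAGGTG was in 119 (11.3%, 9.52 to 13.3%) and 2.66%, an odds ratio of 4.66 (3.36 to 6.47, Fisher's exact test, adjusted p = 3.43e-21). CAGATG was in 7.69% and 3.65%, an odds ratio of 2.196 (1.59 to 3.03, Fisher's exact test, adjusted p = 7.52e-06). These are the main E-box types in what follows. The odds ratio was highest for CAGGTG, and its interval overlaps that of CAGCTG.

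The other 7 E-boxes gave smaller odds ratios. CAGTTG was in 10.4% of summit and 5.74% of shifted windows (1.91, Fisher's exact test, adjusted p = 7.68e-06) and CACATG in 8.35% and 5.36% (1.61, adjusted p = 0.00297). CACGTG, bound by bHLH leucine zipper and clock proteins, gave 1.95 and CACTTG 1.40 (Fisher's exact test, adjusted p = 0.0234 for each). Both lost the call, among other settings, at summits of replicate 1, where the odds ratios of the same 1054 regions were 1.13 and 1.26 (Fisher's exact test, adjusted p = 0.763 and 0.137). CAGTTG was not called without 3xFLAG-Da IP replicate 2 (1.24, Fisher's exact test, adjusted p = 0.0772), nor then were CACGTG (1.57) and CACTTG (1.22). CAAATG with 0.912, CATATG with 0.758 and CAATTG with 0.989 did not pass (Fisher's exact test, adjusted p = 0.508, 0.229 and 1).

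The Control lists give the background of the same measure. CAGCTG was in 6 of 91 far intronic summit windows of Control IP replicate 1 (odds ratio 1.36, 0.468 to 3.94) and 4 of 94 of replicate 2 (0.884, 0.265 to 2.95). CAGGTG was in 1 of 91 and in 0 of 94, the last allowing a share of up to 3.19%. Any of the 3 main types was in 12.1% and 6.38% of Control summit windows, against 32.0% of the 3xFLAG-Da windows. These intervals cover counting error only. The sets were also selected differently. Control windows are all far intronic peaks of each Control list by itself, of which 69.2% and 84.0% overlapped a 3xFLAG-Da peak. The 3xFLAG-Da regions had peaks in both lists and touched no Control peak.

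Most far intronic summit windows lacked the main types, as did most promoter and distal intergenic ones. Of 1054 far intronic windows, 717 (68.0%) held none of the 3 and 409 (38.8%) held no E-box at all. In shifted windows 10.6% held one of the 3. At promoters 74.9% of summit windows held none of the 3 and 49.98% no E-box, and in distal intergenic regions 71.1% and 39.8%. Boxes outside the window were not counted. The summits of the replicates lay within 50 bp of each other in 48.5% of far intronic regions. CAGCTG stood alone among the 3 in 143 far intronic windows, CAGGTG in 100 and CAGATG in 69, and only 25 held more than 1 type. At least 2 E-boxes of any type were in 23.1% of far intronic summit windows against 11.2% of shifted windows. The odds ratio was 2.38 (1.95 to 2.89, Fisher's exact test p = 1.19e-17). It was 1.996 in promoter and 2.37 in distal intergenic regions. The 3 main types together reached 70.2 to 85.4 per 1000 regions per 20 bp within 40 bp of the summit and 15.2 to 34.2 at 200 bp and beyond. At promoters the same counts were 50.6 to 69.4 and 19.2 to 26.9.

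**Figure D2:**
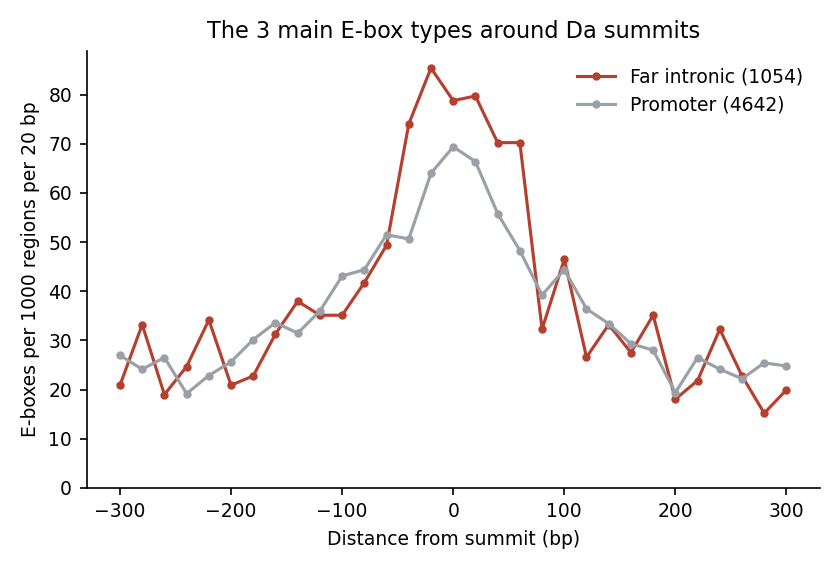
Number of boxes of the 3 main types (CAGCTG and CAGGTG and CAGATG) together per 1000 regions in bins of 20 bp (vertical axis) by distance from the summit in bp (horizontal axis), for 1054 far intronic (red) and 4642 promoter (grey) regions. The far intronic line is highest in the bin 20 bp before the summit, at 85.4, with 78.7 at the summit itself, and the promoter line is highest at the summit, at 69.4.

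The regions ranked highest held the main types most often. Of the 25% with the best mean fold rank, 20.5% held CAGCTG, against 12.9% of the 25% with the poorest (odds ratio 1.74, 1.09 to 2.78, Fisher's exact test, adjusted over 3 E-boxes, p = 0.0261). For CAGGTG the shares were 16.7% and 7.20% (2.58, 1.46 to 4.55, adjusted p = 0.00340 by Fisher's exact test), and for CAGATG 12.1% and 5.30% (2.46, 1.28 to 4.73, adjusted p = 0.0122). The CAGCTG difference was not called without 3xFLAG-Da IP replicate 1 (odds ratio 1.38, Fisher's exact test p = 0.149). The median fold of regions with CAGGTG was 4.45 and 5.14 in replicates 1 and 2, against 3.78 and 4.26 for regions with none of the 3 types.

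CAGCTG shares by intron and distance are given as a description, with no test between the groups. CAGCTG was in 14.3% (11.7 to 17.3%) of the 603 regions in intron 1 of their host and in 17.1% (13.9 to 20.8%) of the 451 in later introns. At 2 to 5 kb from a start it was in 14.8% and at over 10 kb in 14.8%. Of the bases next to the boxes, 0 of 26 pairs of flanking bases around CAGCTG or CAGGTG passed an adjusted p of 0.05 by Fisher's exact test, and 1 had an unadjusted p under 0.05, A before and C after CAGCTG, at 24.1% of boxes at summits and 13.5% of shifted boxes (p = 0.0438). Without 3xFLAG-Da IP replicate 2, 2 pairs passed.

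Far intronic summits differed from promoter summits in CAGGTG. Its odds ratio was 4.66 in far intronic and 1.94 (1.66 to 2.27) in promoter regions, a ratio of 2.40 (1.67 to 3.45, n = 1054 and 4642 regions, Wald test of the difference of log odds ratios, adjusted over 20 comparisons p = 4.05e-05). CAGGTG was in 11.3% of far intronic and 7.02% of promoter summit windows, while in the shifted windows it was in 2.66% and 3.75%. For CAGCTG the odds ratios were 3.64 and 3.94 and their ratio 0.923 (0.690 to 1.23, n = 1054, Wald test, adjusted p = 0.804), an interval that leaves room for differences in both directions. For CAGATG the ratio was 1.18 (0.819 to 1.69, n = 1054, Wald test, adjusted p = 0.690). Of the 20 comparisons, CAGGTG against promoters was the 1 that passed. Without 3xFLAG-Da IP replicate 2, CACATG also passed (ratio 1.53, n = 1819, Wald test, adjusted p = 0.0132), and the CAGGTG ratio to distal intergenic regions was 0.837. Over 19 alternatives the CACATG ratio to promoters was 1.29 to 1.80. It stayed without a call in 15 of them and passed in the rest. Against distal intergenic regions, n = 284, the CAGGTG odds ratios were 4.66 and 2.02, and their ratio of 2.31 (1.21 to 4.41) did not pass (Wald test, adjusted p = 0.105).

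Base composition moved with these results. The median share of G and C was 48.5% in far intronic summit windows and 39.6% in their shifted windows, against 46.5% and 41.6% at promoters. Around far intronic summits of Control IP replicate 1 it was 41.6% in both kinds of window, and in replicate 2 43.6% and 42.6%. With the G and C percent of each window as a covariate, a setting chosen after seeing the data, the odds ratio of CAGCTG was 2.84, that of CAGGTG 3.07 and the ratio of CAGGTG to promoters 1.99 (1.35 to 2.92, n = 1054, Wald test, adjusted p = 0.00942). In windows of 25 bp to both sides the ratio was 2.04 and was not called (n = 1054, Wald test, adjusted p = 0.107).

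All words of 6 bases, each counted with its reverse complement, give the background for the E-boxes. In all, 354 words (17%) were more frequent at far intronic summits and 293 (14.1%) less frequent (Fisher's exact test, adjusted over all words). Among the 492 words with 4 G or C bases, as in CAGCTG and CAGGTG, 30.7% were more frequent and the median odds ratio was 1.46. Among words seen in at least 100 windows, CAGGTG had the highest and CAGCTG the next highest odds ratio. GCCACC, with 3.20, and CACCCC, with 3.19, followed, in 9.77% and 8.82% of summit windows against 3.27% and 2.94% of shifted windows.

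Between far intronic and promoter regions, the odds ratio of 46 words (2.21%) was higher in far introns and that of 46 (2.21%) lower. By the ratio to promoters, AAGGAG led the higher ones, with an odds ratio of 1.76 in far introns against 0.406 at promoters, a ratio of 4.32 (n = 1054, Wald test, adjusted over all words p = 1.23e-06). AGGAGG, which shares 5 of its bases, had a ratio of 3.45. Both ratios lay above that of CAGGTG, 2.40, whose p adjusted over all words was 0.000468 (n = 1054, Wald test). GCCACC was among the higher ones, with 3.20 against 1.43 at promoters (n = 1054, Wald test, adjusted p = 0.00107), and CCACCA with 2.74 against 1.11 (adjusted p = 0.000166). CTTATC, which read from the other strand is GATAAG, the core bound by GATA factors, was among the lower ones. It was in 1.23% of far intronic summit windows and 4.32% of their shifted windows, an odds ratio of 0.277, against 1.07 at promoters (n = 1054, Wald test, adjusted p = 0.00198). TATCGATA, the element of the promoter factor DREF, searched as these 8 letters, was in 1 far intronic summit window (0.0949%) and 0.285% of shifted windows, against 3.92% of promoter summit windows and 0.463% of their shifted windows. TATCGA, part of that element, also had a lower odds ratio in far introns, 0.802 against 3.13 (n = 1054, Wald test, adjusted p = 2.57e-05).

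**Figure D3:**
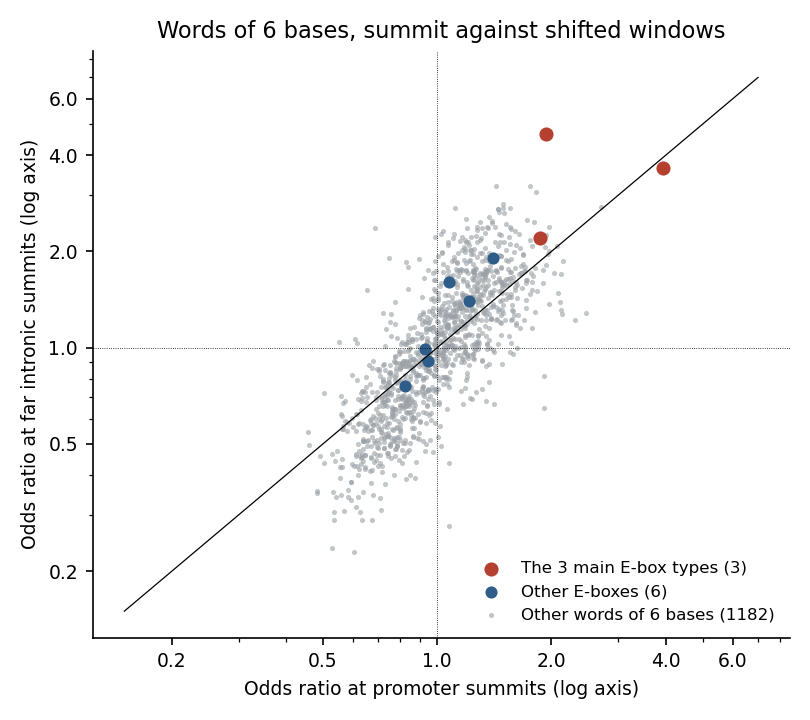
Odds ratio of each word of 6 bases seen in at least 100 far intronic windows, at far intronic summits (vertical, log axis) against promoter summits (horizontal, log axis). The diagonal marks equal odds ratios and the dotted lines an odds ratio of 1. Red points are CAGCTG (3.64 and 3.94), CAGGTG (4.66 and 1.94, highest on the vertical axis) and CAGATG (2.196 and 1.87), blue points other E-boxes and grey points all other words.

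The regions lay in 578 of the 4224 protein-coding genes that have far intron (13.7%). Of the 1054 regions, 1034 had a protein-coding host and 72 lay in several genes at once. A single region was in 332 of the genes, and 38 genes held 5 or more. Longer genes held more regions at a lower density. Genes with up to 5 kb of far intron held 49.6 per Mb, and those with more than 50 kb 12.0 per Mb. A Da region at the promoter was also present in 77.5% of the host genes, against 51.8% of the 3646 genes with far intron and no region in it, as a description. For 703 regions (66.7%) the nearest start was that of a host gene.

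Regions were counted in gene lists, all without a test. Of 71 listed neural and head transcription factor genes with far intron, 32 (45.1%) held at least 1 region, against 13.7% of all genes, and the list had 52.8 regions per Mb against 25.3 per Mb for all protein-coding genes. These genes have more far intron than genes at large, a median of 18.5 kb against 1.65 kb. Among genes with 20 to 50 kb, 17 of 24 on the list (70.8%) were hosts, against 40.8% of all genes of that length, and among those with 10 to 20 kb 4 of 21 (19.0%), against 30.5%. The 32 hosts stand against 21.9 at the shares of all genes of the same length class, and the 101 regions against 45.9 at their densities. The classes were up to 5, 5 to 10, 10 to 20, 20 to 50 and over 50 kb of far intron. Of the 101 regions, 11 were in *hth*, 8 in *Eip75B*, 8 in *sbb*, 7 in *sr* and 6 each in *fru* and *ftz-f1*. The list was chosen with earlier results of these data known. CAGGTG was in 4.04% (1.58 to 9.93%) of the 99 regions whose assigned host is on this list and in 12.0% (10.1 to 14.3%) of the other 955, and CAGCTG in 11.1% (6.319 to 18.8%) and 15.9% (13.7 to 18.4%). The folds of these 99 regions, with medians of 4.03 and 4.49 in replicates 1 and 2, were close to the 3.90 and 4.44 of the others.

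Clock genes had 5 hosts among 13 with far intron, against 2.15 at the shares of all genes by length class. They held 14 regions in 0.155 Mb, or 90.1 per Mb, against 25.3 per Mb for all genes and 4.22 regions by length class. Of the 14, 7 were in *Pdp1*, 3 in *vri*, 2 in *sgg* and 1 each in *nmo* and *slmb*. *Pdp1* and *vri* encode the bZIP activator and repressor of the loop that drives *Clk*. The best region in *vri* had folds of 10.1 and 12.1 and held CAGCTG, and the other 2 in *vri* had 8.0 and 10.4, and 4.60 and 5.47. The window of the best region is shown to place its E-box (chr2L:5293575-5293675).
vri: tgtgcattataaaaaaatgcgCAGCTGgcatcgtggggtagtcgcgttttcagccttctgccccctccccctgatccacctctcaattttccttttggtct

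Genes of neuronal surface proteins are long as well, and their counts stand beside those of all genes by length class. Axon guidance and adhesion genes had 12 hosts of 60 (20%, against 13.7% of all genes), with 23 regions in 2.499 Mb or 9.20 per Mb, of which 6 were in *dally*. At the shares and densities of all genes by length class these would have been 18.9 hosts and 48.3 regions. The best was in *Nrg*, the fly L1-type adhesion molecule, with folds of 10.4 and 11.6. Neurotransmitter receptor genes had 4 hosts of 46 (8.70%) and 5 regions, or 5.81 per Mb, against 10.5 hosts and 23.2 regions by length class. The best, in the glutamate-gated chloride channel gene *GluClalpha*, had 5.52 and 10.6. Channel genes had 6 hosts of 31 (19.4%) and 8 regions, or 12.3 per Mb, against 7.42 hosts and 16.5 regions by length class. The best, in *Hk*, the beta subunit of Shaker channels, had 5.32 and 9.28 and held CAGATG and CACGTG beside CAGTTG and CAAATG in a stretch at one end of its window. The median far intron was 28.3 kb in the adhesion list, 8.56 kb in the receptor list and 7.68 kb in the channel list. Over all genes, those with 5 to 10 kb held 46.9 regions per Mb. Those with 20 to 50 kb held 29.2 and those with more than 50 kb 12.0. The window of *Hk* (chrX:10252903-10253003) is shown as the one with most types of E-box among those named.
Hk: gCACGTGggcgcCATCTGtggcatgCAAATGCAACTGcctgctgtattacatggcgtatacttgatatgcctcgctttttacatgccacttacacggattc

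Learning and memory genes had 8 hosts of 36 (22.2%) and 20 regions, or 25.3 per Mb, against 13.7% and 25.3 per Mb for all genes and 8.49 hosts and 18.2 regions by length class. *Raf* and *dnc*, the cAMP phosphodiesterase gene, held 5 each and *scrib* 4, and the highest was the region in *Fmr1*. Of 7 class 2 bHLH and Id genes with far intron, *Fer1* and *twi* held 1 region each, the better of them, with folds of 4.69 and 4.64, in an intron of the overlapping gene *CG9896*. The 2 hosts (28.6%, against 13.7% of all genes) stand against 0.688 by length class. The 2 regions, or 33.6 per Mb, stand against 2.04. None of the 85 cytosolic ribosomal protein genes has far intron, so none could hold a region.

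**Figure D4:**
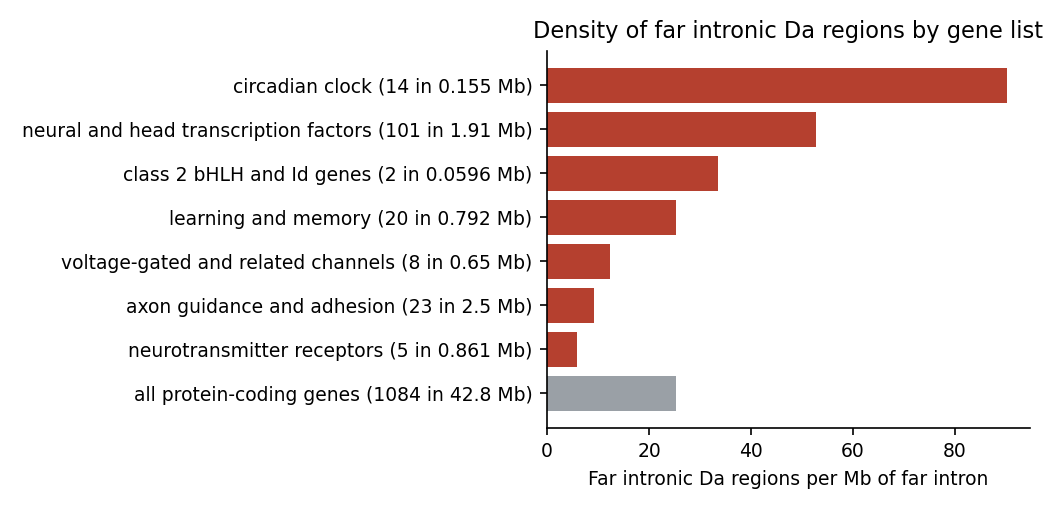
Far intronic Da regions per Mb of far intron (horizontal axis) in each gene list (red) and in all protein-coding genes (grey, bottom). Numbers in brackets are regions and the Mb of far intron. Clock genes (90.1), transcription factor genes (52.8) and class 2 bHLH and Id genes (33.6, from 2 regions) lie above all genes (25.3). Receptor (5.81), adhesion (9.20) and channel (12.3) genes lie below.

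Some genes held a row of regions. *Eip74EF*, an ETS factor induced by the moulting hormone ecdysone, held 11 in 47.5 kb of far intron. Their folds ran from 2.56 to 8.81 in replicate 1 and from 3.55 to 10.9 in replicate 2. None of the 11 summit windows held one of the 3 main E-box types, against 32.0% of all 1054 far intronic summit windows. *Snoo*, of the Ski and Sno family in TGF-beta signalling, also held 11, with 2.504 to 6.81 and 3.52 to 9.20, and 2 of its windows held a main type. The 11 regions of *hth* spread over more sequence, 113 kb, had 2.17 to 12.7 and 3.12 to 19.0, and 2 held a main type.

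Hosts with fewer regions followed. *tara*, a nuclear protein of cell cycle and sleep control, held 9 in 25.1 kb, with folds of at most 5.93 and 7.96. *Eip75B*, an ecdysone-induced nuclear receptor, held 8, of which 3 had a main type. *CG46467* and *Glut4EF* overlap and share the same 8 regions, of which 5 had a main type. *sbb* held 8 with 1 main type and folds of up to 9.32 and 14.8. *Pdp1* and *mub*, an RNA-binding protein of mushroom bodies, held 7 each, of which 1 and 2 had a main type. Of all 1054 far intronic regions, 32.0% had one in the summit window. The best regions of *Snoo*, *Pdp1* and *mub* had summit windows without any E-box, as had 38.8% of all far intronic regions. *shn* and *sr* also held 7 each, and ties were taken by gene symbol. Each of the 10 genes described also had a Da region at a promoter, against 77.5% of all host genes and 55.3% of all genes with far intron.

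**Figure D5:**
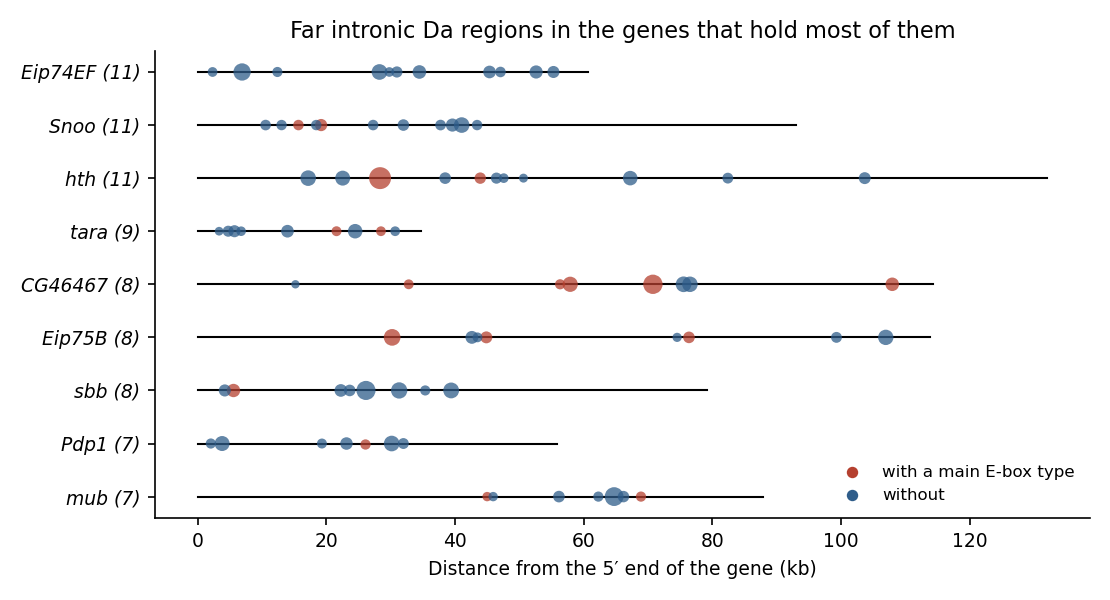
Far intronic Da regions (points) along the genes that hold most of them (black lines, to scale), by distance from the 5′ end of the gene in kb. Point area grows with the mean fold of the replicates, red points hold one of the 3 main E-box types within 50 bp of the summit and blue points do not. None of the 11 points of *Eip74EF* is red, and 5 of the 8 of *CG46467* are, against 32.0% of all 1054 far intronic regions.

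Neighbouring far intronic regions on a chromosome lay a median of 29600 bp apart, and 163 of 1048 gaps were within 2000 bp. Regions of one gene, and windows of one region, are therefore neighbours and not independent replicates. The tests describe these libraries and not a population of flies.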

How the data were processed

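ChIP-seq with an anti-FLAG antibody was performed on 3xFLAG-Da and Control (white*) heads, with 2 IP and 2 input samples each. Per the labels and the study's methods, the authors mapped 75 bp single-end reads with Bowtie2 (2.5.1) to BDGP6, filtered on mapping quality (20) and duplicates with SAMtools (1.12), and called peaks with MACS2 (2.2.7.1) for each IP against its input at q 0.05. The deposited peak lists give the authors' fold enrichment (a ratio of pileup to local background), −log10 p, −log10 q and a score, which follows 10 times −log10 q. Input reads entered only through the peak calling. Coverage was recovered from fold and −log10 p under the Poisson model of MACS2.

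Overlapping peaks (1 bp) were merged. The summit was that of the replicate 2 peak with the lowest start. Gene models were Ensembl release 115 without transposable elements, and sequence was RefSeq Release 6. The study used an earlier annotation of the same assembly. E-boxes and words were tested by Fisher's exact test (two-sided), with odds ratios and Wald intervals of a logistic regression on 1 term, in SciPy (1.17.1) and statsmodels (0.14.6). The word test was run on simulated windows, with summit and shifted windows drawn from the same base frequencies. Real windows differ in G and C, so the simulation cannot show how the test behaves under that difference. Coordinates count from 1.

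Members and gene lists were chosen with earlier results of these data known. Genes named were the 10 best regions by mean fold rank, 10 hosts with most regions (ties by symbol), the best region per list, 3 regions at each side of the distance limit and the 3 highest Control peaks per list. Other list members, and the words GATAAG and TATCGATA, were named after values were seen or the files were at hand. Of 321 listed gene symbols 317 were matched. Alternatives covered summits, distance limit, gene models, overlap, peak threshold, Control handling, each replicate left out, depth, windows, base composition and windows matched by region. Nothing says whether the replicates came from separate fly collections beyond the study calling them biological.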

Additional observations from a re-analysis of the deposited data

Results flagged for a closer look

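The odds ratio of CAGGTG at far intronic summits exceeded that at promoter summits by a ratio of 2.40 (1.67 to 3.45, n = 1054 and 4642 regions), by the Wald test of the difference of log odds ratios (adjusted p = 4.05e-05), which passed where the other 19 E-box comparisons did not. The shares were 11.3% of 1054 far intronic and 7.02% of 4642 promoter summit windows. The ratio was between 1.91 and 5.396 over 19 alternatives and passed in all but the window of 25 bp to both sides. The CACATG ratio to promoters stayed without a call in 15 of the 19 and passed in the rest.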

How the results depend on the processing

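The odds ratios of CAGCTG (2.84 to 5.35) and CAGGTG (3.07 to 10.7) kept their direction and their call under all 19 alternatives run, and that of at least 2 E-boxes (2.03 to 2.84) under all 9. CAGATG was not called among regions over 5000 bp from starts (1.60). That distance gave 514 regions, 291 host genes and 130 more frequent words in place of 354, and regions callable at Control depth numbered 247 in 198 genes, with 56 such words. These settings hold fewer regions by construction. Replicate 1 summits gave 175 such words and 1 flanking pair, and windows of 25 bp 170 words and a CAGGTG ratio to promoters of 2.04. Against distal intergenic regions that ratio was called at a limit of 1000 bp (2.28) and with base composition as a covariate (2.96). The CAGCTG odds ratio of the best over the poorest 25% was 1.39 and not called in windows of 100 bp, and with a library left out lay between 1.38 and 1.84. With each library left out in turn, regions numbered 1057 to 1819 and flanking pairs called 0 to 2. The cause of these changes was not tested. With each summit window matched to the shifted windows of its own region by conditional logistic regression, an alternative chosen after seeing the data, all calls of E-boxes were kept, with odds ratios of 3.73 for CAGCTG and 4.66 for CAGGTG and a CAGGTG ratio to promoters of 2.39. Of the E-boxes with smaller odds ratios, CACGTG kept its call in 9, CACTTG in 10, CACATG in 16 and CAGTTG in 18 of 19 alternatives. In 89 of 587 odds ratios recomputed, a value under the threshold in both settings lay on the other side of 1, 16 of them of the 3 main types, and no call changed its direction.

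No paired analysis was possible because no result compared 3xFLAG-Da with Control libraries, so the replicate number they share could not enter a fit. The lists hold peaks without read counts, so the Control signal at a region without a Control peak is not known, and 343 regions had a chance under 0.5 of being called at Control depth. The nearest start and the host gene do not show which gene a region acts on.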
